A study of Homo sapiens with 12 samples.

Results

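The vesicle docking and fusion genes STX1A, SNAP25, VAMP2, UNC13A, CPLX1, RAB3C, RAB3B, SYP and NSG2, 9 in all, were compared in A549 and HTB56 (also known as Calu-6), both established human lung cancer lines. Each of the 9 had 1 probe set carrying its symbol alone, so the rule of taking the probe set with the highest mean over the 12 arrays made no choice, and the 9 stand among 18417 genes with such a probe set. The list itself was chosen by name with results of the same arrays known, RAB3C and NSG2 having been among the largest decreases between selected and unselected HTB56 cells. The values of that comparison, and of others that use the HTB56 arrays, are therefore given for the 9 genes as a description, with no p-value. Where limma calls of the 9 in that comparison are counted, the share over all genes stands beside them and nothing is read from the count.

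RNA was hybridised to Affymetrix whole-transcript arrays, 3 per group in 4 groups. A0R and H0R are unselected A549 and HTB56 cells (0 rounds of selection). A3R and H3R are the same lines after 3 rounds of selection in mice, in which cells injected into a vein formed tumour nodules in the lung. All 4 groups were untreated with respect to 5-azacytidine. The sources used here do not name the mouse strain or say whether a selected line came from 1 nodule or several. They are also silent on whether a group's 3 arrays came from different cultures, so p-values measure only the spread between these samples. All levels are log2 RMA signals, in which a difference of 1 is 2-fold, and levels are compared between groups and never between genes, since each probe set has its own response.

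Regulated secretion rests on a small set of proteins. Syntaxin 1A (STX1A) and SNAP25 in the plasma membrane and synaptobrevin 2 (VAMP2) in the vesicle membrane are SNARE proteins, which zip together and draw the membranes into contact. UNC13A opens syntaxin for this reaction, complexin 1 (CPLX1) clamps and assists the assembled SNAREs, and RAB3 GTPases tether vesicles before fusion. Synaptophysin (SYP) is an abundant membrane protein of small vesicles, and NSG2 a membrane protein of endosomes and vesicles. These proteins are best known from neurons and neuroendocrine cells, and most other cells secrete with related family members.

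Unselected HTB56 cells carried more mRNA of 8 of the 9 genes than the other groups did, and in selected HTB56 cells these 8 stood lower while RAB3B stood higher. In A549 cells 1 gene, SNAP25, fell after selection, and for the other 8 the A3R and A0R arrays overlapped. The arrays measured bulk RNA, so fewer cells expressing a gene and less RNA per cell cannot be told apart.

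**Figure D1:**
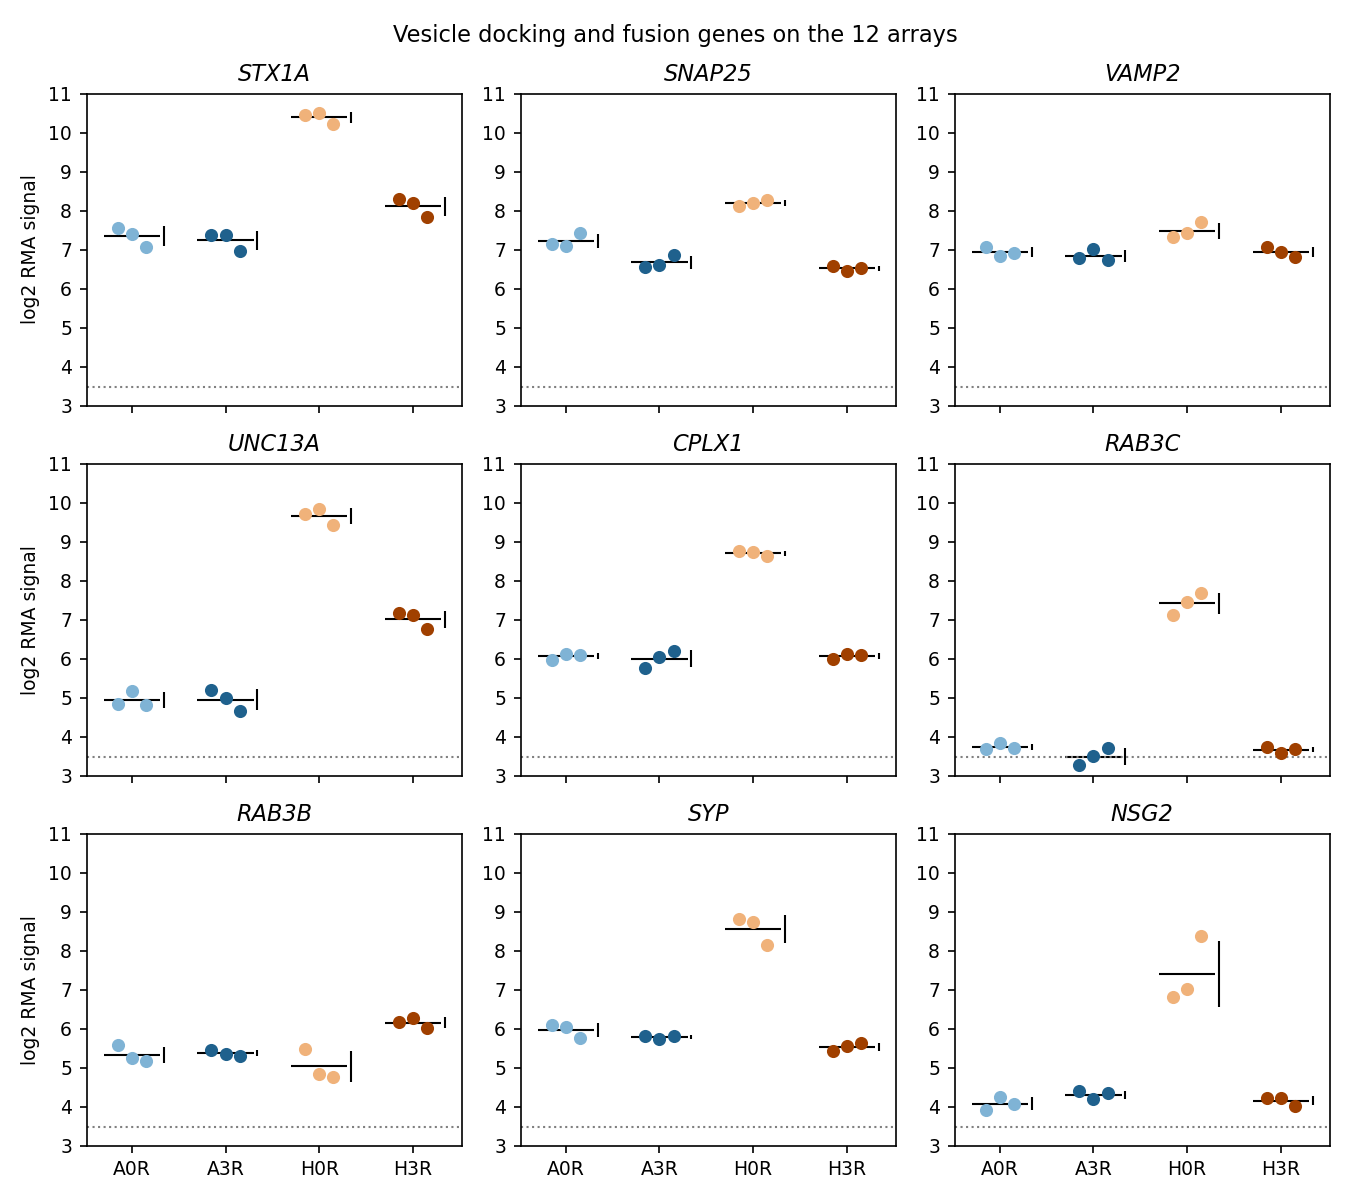
log2 RMA signal (vertical axes, 3 to 11) of the 9 genes on each array, by group. Points are arrays in the order of their replicate number, horizontal lines are means, vertical lines are 1 SD to each side (n = 3), and the dotted line is the mean 20th percentile of the arrays (3.48). For 8 genes the 3 H0R arrays lie above all others, and for RAB3B the 3 H3R arrays do.

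Promoter sequences are printed for 4 genes that stood lower in H3R and for RAB3B, which stood higher, so that the letters before the start sites can be compared. RefSeq windows of build GRCh38.p14 were matched for 6 of the 9 genes by symbol. Each line gives the 250 bases before the transcription start, 5′ to 3′ on the strand of the gene, at chr5:58582825-58583074 on the plus strand for RAB3C, chr19:17688355-17688604 on the minus strand for UNC13A, chr7:73719670-73719919 on the minus strand for STX1A, chrX:49200194-49200443 on the minus strand for SYP and chr1:51990701-51990950 on the minus strand for RAB3B. Capitals mark matches on either strand to the E-box CANNTG and to GGACAG, the right-hand part of the RE1 element that the repressor REST binds.
RAB3C: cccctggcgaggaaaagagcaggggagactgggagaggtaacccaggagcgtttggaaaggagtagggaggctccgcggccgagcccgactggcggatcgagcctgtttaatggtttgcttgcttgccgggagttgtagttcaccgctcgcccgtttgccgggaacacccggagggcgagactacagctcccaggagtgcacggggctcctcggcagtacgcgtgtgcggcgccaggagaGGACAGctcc
UNC13A: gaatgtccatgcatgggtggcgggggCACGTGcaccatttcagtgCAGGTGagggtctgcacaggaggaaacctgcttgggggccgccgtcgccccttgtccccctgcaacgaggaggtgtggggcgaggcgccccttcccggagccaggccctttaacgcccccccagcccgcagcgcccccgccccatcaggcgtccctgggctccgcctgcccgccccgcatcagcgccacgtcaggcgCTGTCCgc
STX1A: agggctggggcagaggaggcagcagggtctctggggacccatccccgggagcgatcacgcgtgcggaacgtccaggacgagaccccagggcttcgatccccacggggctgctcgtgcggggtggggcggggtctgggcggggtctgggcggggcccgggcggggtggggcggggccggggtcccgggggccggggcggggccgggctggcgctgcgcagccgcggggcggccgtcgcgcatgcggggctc
SYP: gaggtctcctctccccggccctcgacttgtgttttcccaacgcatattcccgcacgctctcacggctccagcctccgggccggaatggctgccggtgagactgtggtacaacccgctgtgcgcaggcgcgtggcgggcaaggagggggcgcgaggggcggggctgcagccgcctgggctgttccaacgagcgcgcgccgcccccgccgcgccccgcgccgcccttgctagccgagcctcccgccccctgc
RAB3B: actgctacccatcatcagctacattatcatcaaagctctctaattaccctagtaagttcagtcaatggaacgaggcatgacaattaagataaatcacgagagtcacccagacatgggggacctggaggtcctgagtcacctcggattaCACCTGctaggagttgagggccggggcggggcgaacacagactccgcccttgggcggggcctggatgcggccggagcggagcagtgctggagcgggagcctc

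These windows did not share a motif among those searched. GGACAG occurred once in RAB3C and once in UNC13A, and in 17.2% of all 35116 windows of that length. The E-box had 2 matches in UNC13A and 1 in RAB3B, and 61.8% of all windows held at least 1. The CRE octamer TGACGTCA, a cyclic AMP response element, was in none of the 6 genes' windows and in 1.65% of all. A match is a description of the letters and no evidence of binding. The windows differed in base composition: STX1A had 80.8% G and C with 31 CpG dinucleotides and SYP 74.0% with 31, against a median of 58% and 11 over all windows. UNC13A had 72.0% and 21 and RAB3C 64.8% and 21, and RAB3B, at 56.8% and 12, was close to the median.

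Of the SNARE genes, STX1A read 10.45, 10.50 and 10.23 on the 3 H0R arrays and 8.30, 8.19 and 7.84 on the H3R arrays. In A549 it read 7.56, 7.40 and 7.06 in A0R and 7.38, 7.38 and 6.96 in A3R. The H3R arrays thus lay below all H0R arrays and above all A549 arrays. The mean was 10.40 ± 0.14 (SD, n = 3) in H0R and 8.11 ± 0.24 in H3R, a difference of -2.29 on the log2 scale (SE 0.16), or 4.88-fold.

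SNAP25 read 8.11, 8.18 and 8.26 in H0R and 6.57, 6.46 and 6.52 in H3R, a difference of -1.67 (SE 0.12), or 3.18-fold. On the A0R arrays it read 7.13, 7.09 and 7.42 and on the A3R arrays 6.54, 6.61 and 6.86. H3R lay below all A0R arrays and overlapped A3R. VAMP2, the vesicle SNARE gene, varied least among the 9, with an SD of 0.29 over the 12 arrays. It read 7.31, 7.42 and 7.70 in H0R and 7.07, 6.93 and 6.81 in H3R, a difference of -0.54 (SE 0.13), or 1.45-fold. H3R overlapped both A549 groups, whose arrays lay between 6.72 and 7.07.

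Of the factors that prepare and clamp SNARE complexes, UNC13A had the widest gap between the lines. It read 9.71, 9.83 and 9.42 in H0R, 7.16, 7.11 and 6.75 in H3R, and between 4.65 and 5.20 on the 6 A549 arrays. H0R exceeded A0R by 4.72 (SE 0.16), or 26.3-fold, and H3R stood 2.65 lower than H0R (SE 0.16) but still 2.07 above A0R. CPLX1 read 8.76, 8.72 and 8.63 in H0R and 5.99, 6.11 and 6.10 in H3R, a difference of -2.64 (SE 0.11), or 6.22-fold. The H3R mean of 6.07 ± 0.07 lay within the range of the A549 arrays, 5.75 to 6.19.

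Both RAB3 genes differed between H0R and H3R, in opposite directions. RAB3C read 7.13, 7.46 and 7.67 in H0R and 3.73, 3.59 and 3.67 in H3R, a difference of -3.76 (SE 0.14), or 13.6-fold, the largest of the 9. The A549 arrays lay between 3.26 and 3.83. All groups but H0R were thus close to the 20th percentile of the arrays, 3.48 on average, and at such signals RMA compresses differences. RAB3C was above that percentile on 10 of the 12 arrays and the other 8 genes on all 12.

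RAB3B read 5.48, 4.84 and 4.77 in H0R and 6.17, 6.28 and 6.01 in H3R, a difference of 1.13 (SE 0.17), or 2.18-fold. The A549 arrays lay between 5.18 and 5.57, below all H3R arrays. The H0R replicate 1 of RAB3B fell within the A549 range while the other two H0R arrays lay beneath it.

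Of the vesicle membrane genes, SYP read 8.80, 8.73 and 8.14 in H0R and 5.43, 5.56 and 5.63 in H3R, a difference of -3.02 (SE 0.15), or 8.10-fold. All H3R arrays were below all A0R (5.76 to 6.09) and A3R arrays (5.73 to 5.82). NSG2 read 6.82, 7.02 and 8.38 in H0R and 4.21, 4.22 and 4.02 in H3R, a difference of -3.25 (SE 0.28), or 9.53-fold. Replicate 3 gave NSG2 the largest SD of any gene and group here, 0.85 in H0R, and without that array the difference was -2.77 (SE 0.13). The A549 arrays of NSG2 lay between 3.91 and 4.39, a range that held all H3R values.

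All 3 H3R arrays lay below all 3 H0R arrays for 8 of the 9 genes, as they did for 17.8% of the 16939 genes tested. Of the 9, 7 were lower by at least 2-fold, against 2.02% of all genes. Limma called 8 of the 9 lower in H3R, against 10.9% of all genes, and 1 higher, against 8.57%. In either direction 19.5% of all genes were called at an adjusted p below 0.05. The median change was -2.64 over the 9 genes and 0.02 over all genes. Paired by replicate number, RAB3B was higher by 0.69, 1.45 and 1.24, and the difference of each of the other genes was below 0 in all 3 pairs, with the smallest for VAMP2 (-0.24, -0.48 and -0.89).

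**Figure D2:**
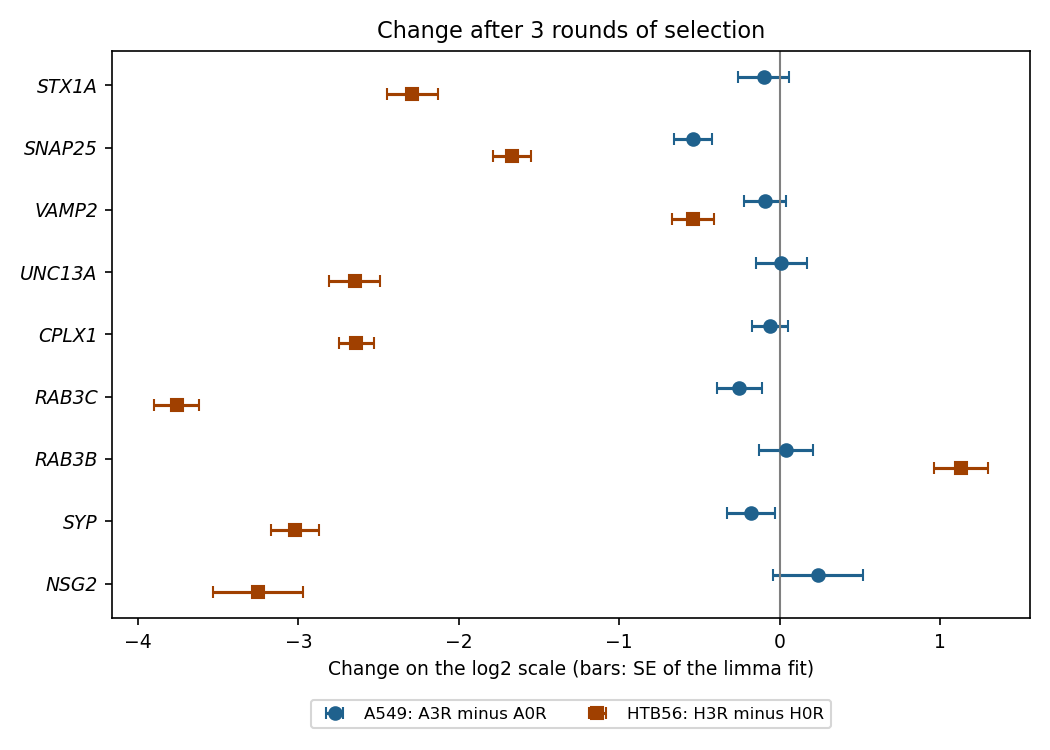
Change after 3 rounds of selection for the 9 genes on the log2 scale (horizontal axis), A549 as circles and HTB56 as squares, with bars of 1 SE from the limma fit. HTB56 squares run from -3.76 (RAB3C) to 1.13 (RAB3B), and A549 circles from -0.54 (SNAP25) to 0.24 (NSG2).

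For 8 of the 9 genes all H0R arrays lay above all A0R arrays, as they did for 27.8% of all genes, and these 8 ended at different places in H3R. Set against the H0R to A0R gap of each gene on the log2 scale, the decrease in H3R came to 99.6% of the gap for CPLX1, 98.8% for VAMP2, 97.6% for NSG2 and 102% for RAB3C. CPLX1 and VAMP2 were therefore at A549 levels in H3R, with arrays that overlapped those of A0R. The arrays of RAB3C (means of 3.66 in H3R and 3.74 in A0R) and NSG2 (4.15 and 4.07) overlapped too. Both genes were dim in these groups, where RMA compresses differences, so their overlap shows only that both groups had low signal. For SYP (116%) and SNAP25 (171%) the selected cells lay below A0R. For STX1A (74.8%) and UNC13A (56.2%) they kept an excess over A0R of 0.77 and 2.07. RAB3B, with an H0R to A0R difference of -0.30 (SE 0.17), had no such gap, and H3R exceeded A0R by 0.82.

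**Figure D3:**
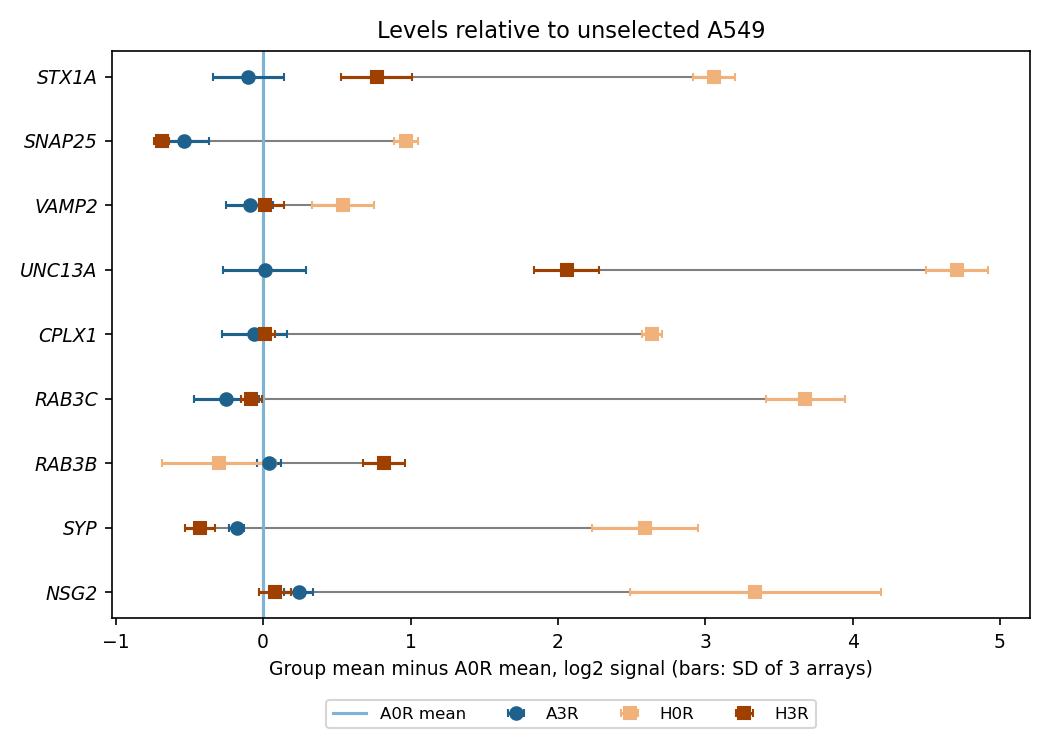
Group means minus the A0R mean (horizontal axis, log2 signal) for A3R (circles), H0R and H3R (squares), with bars of 1 SD (n = 3) and a grey line joining H0R to H3R. H3R meets the A0R line for CPLX1, VAMP2, RAB3C and NSG2, lies left of it for SYP and SNAP25, and right of it for STX1A (0.77), UNC13A (2.07) and RAB3B (0.82). RAB3C and NSG2 were dim in both H3R and A0R.

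The comparison of A3R with A0R asks whether selection changed the same genes in A549, and here p-values are given for the 9 genes. The genes were chosen with earlier results of these data known, so these p-values are no independent test. SNAP25 fell by 0.54 in log2 signal (limma, SE 0.12, adjusted p = 0.0261), 1.46-fold, from 7.21 ± 0.18 to 6.67 ± 0.17 (SD, n = 3), and it was lower in 3 of 3 pairs of arrays with the same number. It was the 1 of 9 genes called, against 1.75% of all genes called in either direction, and the 1 whose A3R arrays all lay below the A0R arrays, against 6.48% of all genes. The call rests on the spread estimated over all 12 arrays. With the 6 A549 arrays alone the adjusted p was 0.126, without A0R replicate 1 or 3 it was 0.0563 or 0.0925, and without A3R replicate 1 or 2 it was 0.106 or 0.11. The main fit ignores the replicate number, and with that number as a block the limma adjusted p was 0.0062.

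For the other 8 genes no change was detected in A549, with limma adjusted p-values from 0.622 (RAB3C) to 0.996 (UNC13A) and none at an unadjusted p below 0.05. The 95% confidence intervals of the log2 change were -0.50 to 0.15 for SYP, -0.44 to 0.25 for STX1A, -0.30 to 0.19 for CPLX1 and -0.34 to 0.36 for UNC13A. They were -0.32 to 0.39 for RAB3B, -0.55 to 0.05 for RAB3C, -0.36 to 0.18 for VAMP2 and -0.37 to 0.84 for NSG2. Each interval leaves out a decrease of 2-fold. The median change over the 9 genes was -0.09, against -0.01 over all genes. RAB3C and NSG2 were dim in both A549 groups, so a decrease there could not be measured well.

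Other genes of vesicle docking, fusion and retrieval were examined in 7 lists of 176 genes without the 9, of which 163 were tested. These lists, like the 9 genes, were chosen with earlier results of these data known. The p-values of their genes are therefore no independent test. In A549 limma called 2 higher and 1 lower, 1.84% of the lists against 1.75% of all genes, and in HTB56 10 higher and 24 lower, 20.9% against 19.5%. Both shares were near the background, and the median change was 0.02 in A549 and -0.03 in HTB56. Over all genes 10.9% were called lower and 8.57% higher in HTB56. By list, the share called there in either direction ran from 11.1% (exocyst subunits) to 28.6% (priming factors and complexins). With the replicate number as a block, 3 were called higher and 2 lower in A549. After centring each array on its median the A549 split was 1 higher and 1 lower, and after cyclic loess 3 and 1.

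Among 39 other SNARE proteins and fusion factors, 4 were called higher and 6 lower in HTB56 (median -0.04), and with the replicate block 8 and 8. STXBP5L, a tomosyn family gene whose product binds syntaxin and SNAP25, fell by 3.06 (SE 0.12, limma adjusted p = 5.82e-10), from 6.77 ± 0.14 in H0R to 3.71 ± 0.16 in H3R, and stood at 3.57 ± 0.11 in A0R. VAMP8, an endosomal and granule SNARE gene, fell by 1.54 in HTB56 (SE 0.13, adjusted p = 1.39e-06), while in A549 it rose by 0.65 (SE 0.13, adjusted p = 0.0223). Its changes differed between the lines by -2.19 (SE 0.19, limma adjusted p = 3.33e-06). The A549 call of VAMP8 was lost in 6 of 22 alternatives, at adjusted p = 0.0944 without A0R replicate 1, 0.094 without A0R replicate 2, 0.0512 without A3R replicate 2, 0.0907 without A3R replicate 3 and 0.051 with the A549 arrays alone, and at a threshold of 0.01. VAMP7, a SNARE gene of lysosome exocytosis, rose by 0.96 in HTB56 (SE 0.11, adjusted p = 2.81e-05), and STXBP6, which encodes the SNARE-binding protein amisyn, by 0.70 (SE 0.11). GOSR1, a Golgi SNARE gene, rose by 0.41 in A549 (adjusted p = 0.0377), a call lost in 14 of 22 alternatives, among them the removal of any single A549 array.

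Priming factors and complexins moved in both directions in HTB56, with 2 of 14 called higher and 2 lower (median 0.02). CPLX2, the complexin gene closest to CPLX1, fell by 2.30 (SE 0.15, adjusted p = 1.17e-07), from 7.72 ± 0.31 to 5.43 ± 0.26. Unlike CPLX1 it was higher in A549, at 10.82 ± 0.08 in A0R and 10.85 ± 0.11 in A3R. CADPS, a priming factor gene of dense-core vesicles, fell by 1.61 (SE 0.14), from 5.02 to 3.41, a level below the 20th percentile of 3.48, while its relative CADPS2 rose by 1.18 (SE 0.18, adjusted p = 0.000251). UNC13D, the UNC13 gene of leukocyte granules, rose by 0.44 (SE 0.10). Limma called none of the 14 in A549, where 2 had an unadjusted p below 0.05.

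RAB3 and RAB27 regulators and effectors had 3 of 26 called higher and 1 lower in HTB56 (median -0.04). SYTL4, an effector gene of RAB27 and RAB3, rose by 0.49 (SE 0.11) and the GDP dissociation inhibitor gene GDI2 by 0.45 (SE 0.10). RAB27B fell by 0.68 (SE 0.20, adjusted p = 0.0239), a call lost without H0R replicate 1 (0.0728) or 2 (0.0781) and without H3R replicate 2 (0.0644) or 3 (0.106). Without H3R replicate 3 the change was -0.42. In A549 limma called 0 of the 26, and 2 had an unadjusted p below 0.05.

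Vesicle membrane genes other than SYP, VAMP2 and NSG2 had 1 of 27 called higher and 5 lower in HTB56 (median -0.02). SYN1, the synapsin I gene of synaptic vesicles, fell by 1.03 (SE 0.12, adjusted p = 3.26e-05), and ATP6V0A1, a subunit gene of the vesicle proton pump, by 0.93 (SE 0.14). SCAMP2 rose by 0.41 (SE 0.11), a call lost without H0R replicate 3 (0.0651) or H3R replicate 1 (0.0661) or 2 (0.0584). In A549 limma called 0 of the 27, and 1 had an unadjusted p below 0.05.

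Of 22 active zone scaffold genes, 4 were called lower and 0 higher in HTB56 (median -0.03), 18.2% against 19.5% of all genes. The largest decreases called were those of PCLO, the piccolo gene, at -1.14 (SE 0.13), and PPFIA3, a liprin gene, at -0.77 (SE 0.14). In A549 the scaffold gene LIN7A was the 1 called, at -2.64 (SE 0.17, adjusted p = 1.24e-06), from 6.67 ± 0.18 in A0R to 4.02 ± 0.17 in A3R. In HTB56 it read 3.69 to 4.34 in H0R and 3.48 to 3.95 in H3R, so unselected HTB56 cells stood close to the A3R level. Of 26 vesicle retrieval genes, 5 were called lower and 0 higher in HTB56 (median -0.05), 19.2% against 19.5% of all genes. The largest decreases were those of the dynamin genes DNM1, which fell by 1.34 (SE 0.15), and DNM3, which fell by 0.87 (SE 0.12). Limma called none of these 26 in A549, where 3 had an unadjusted p below 0.05, and 1 was called lower with the replicate block. Of the 9 exocyst subunits, which tether vesicles in all cells, EXOC6B was the 1 called in HTB56, at -0.95 (SE 0.11), and 3 were called lower with the replicate block. Limma called none in A549, and 0 had an unadjusted p below 0.05.

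**Figure D4:**
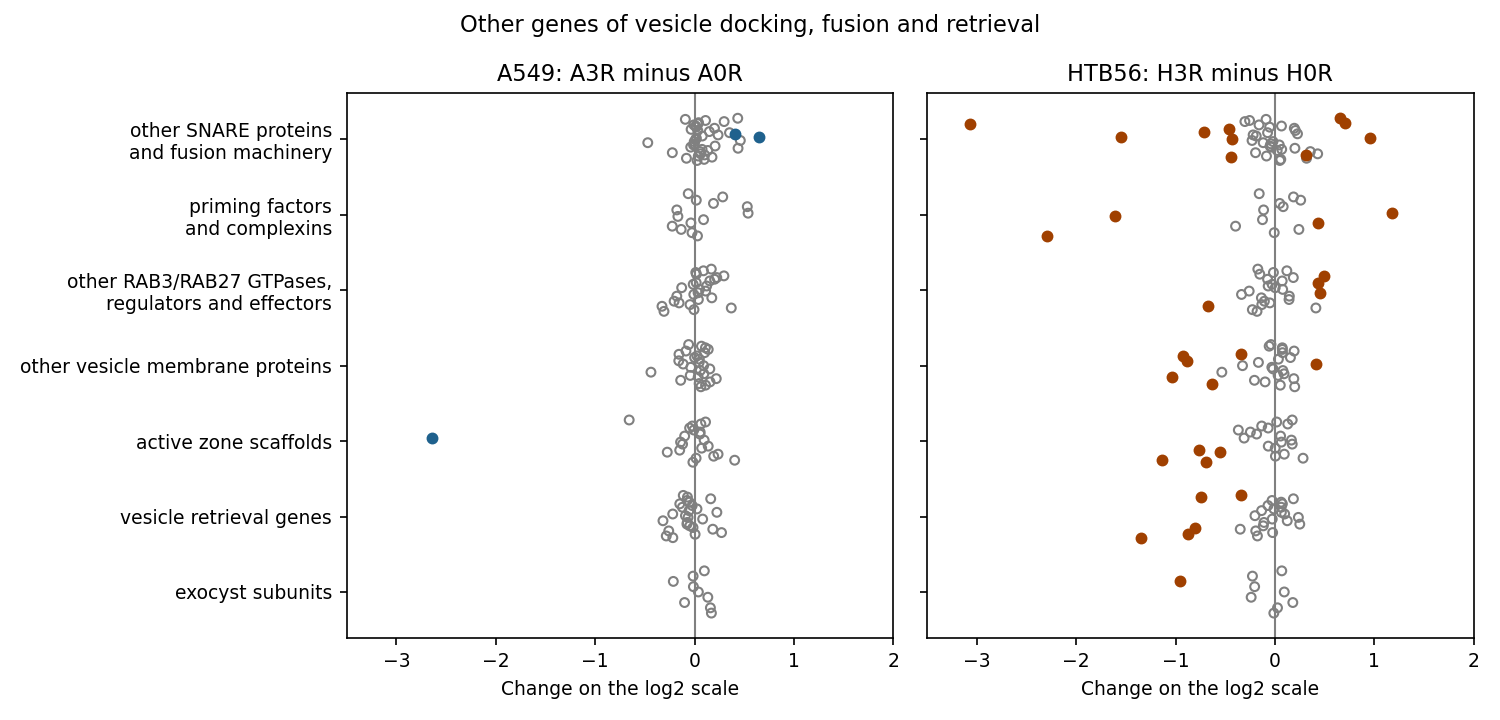
Change on the log2 scale (horizontal axes) of the 163 other genes in A549 (left) and HTB56 (right), 1 point per gene, grouped by list on the vertical axis with genes spread vertically for legibility. Filled points passed a limma adjusted p of 0.05, 3 in A549 and 34 in HTB56, and STXBP5L at -3.06 and CPLX2 at -2.30 lie farthest left in HTB56.

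The genes whose signal followed each of the 9 most closely over the 12 arrays were found by Pearson correlation, given as a description, since arrays share their line and group. RAB3C was followed most closely by RTN1, STXBP5L and NMNAT2 (r = 0.993 each), CPLX1 by DRD2 (0.996), GPC4 (0.995) and MFNG (0.994), and SYP by ITGB3 (0.991), FBXL15 (0.991) and DRD2 (0.99). STX1A was followed by ZDHHC20 (0.993), VIPR1 (0.992) and TMEM43 (0.991), and UNC13A by EXT1 (0.995), LYPD6B (0.994) and PTPRK (0.994). SNAP25, the member that fell in A549, was followed by CXXC5 (0.981), INPP4A (0.97) and MARK1 (0.969), whose A549 differences were -0.56, -0.38 and -0.48. The A549 arrays entered the correlation that chose these genes, so their differences are no support for the SNAP25 call. NSG2 was followed by OR4C6 (0.987), GSAP (0.976) and PCCA (0.974). RAB3B and VAMP2 varied by an SD of 0.48 and 0.29 over the 12 arrays and were left out of this search.

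Markers of other cell types and of the line itself were read on the same arrays. Over all genes, limma called 1.75% in A549 and 19.5% in HTB56 (10.9% lower and 8.57% higher), the background for the marker counts below. Of 8 tested neuroendocrine markers 1 (DDC) was called lower in A549, and 5 (CHGA, CHGB, SCG2, SCG3 and NCAM1) lower and 0 higher in HTB56. The summed linear signal of the 8 was 3336 to 3537 in H0R, 587 to 621 in H3R and 767 to 1088 in A549. These sums rest on different genes. DDC and ENO2 read 8.9 and 8.28 in A0R, above their 4.89 and 7.41 in H0R. The 5 genes lower in HTB56 had A0R means from 3.3 (SCG3) to 4.9 (SCG2), below their H0R means. INSM1, a neuroendocrine transcription factor gene, read 6.76 ± 0.10 in H0R and 6.85 ± 0.23 in H3R (limma adjusted p = 0.716). REST, which encodes a repressor of neuronal genes, rose from 8.88 ± 0.11 to 9.36 ± 0.08 in HTB56 (log2 change 0.48, SE 0.10, adjusted p = 0.00272), and its part in the differences above was not tested. In A549 it read 8.64 ± 0.09 and 8.80 ± 0.05 (adjusted p = 0.663). Of 8 tested neuronal markers 1 was lower, GAP43, a growth cone gene, at 8.94 in H0R and 6.68 in H3R (log2 change -2.26, adjusted p = 1.58e-05). The others differed by -0.02 to 0.28, and the sums of all 9 on the arrays were 554 to 959 in H0R and 287 to 321 in H3R.

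Of 7 tested fibroblast markers 4 were called higher and 0 lower in HTB56, with sums of 423 to 499 in H0R and 775 to 836 in H3R. The collagen genes COL1A1 and COL3A1 rose by 1.41 (limma adjusted p = 6.56e-07) and 1.29 (2.66e-06), LUM, the lumican gene, by 1.78 (0.000102) and PDGFRA, a growth factor receptor gene, by 0.71 (0.00943). COL1A2 differed by 0.05, PDGFRB by -0.18 and THY1 by -0.08, none of them called. DCN, a defining marker of fibroblasts, was below the 20th percentile on every array of every group. Of 6 leukocyte markers 2 were called higher, LYZ, the lysozyme gene, by 1.66 (adjusted p = 1.75e-05) and the lysosomal gene CD68 by 0.65 (0.00564). The sums were 518 to 607 in H0R and 743 to 973 in H3R, and PTPRC, the pan-leukocyte marker, was below that percentile in all groups. By limma 0 of 7 endothelial markers were called in HTB56, with 1 at an unadjusted p below 0.05 and sums of 330 to 350 in H0R and 339 to 378 in H3R. The part of these markers in the results was not tested. Of 8 epithelial markers 2 were called higher and 1 lower in A549, and 1 higher and 1 lower in HTB56. CDH1, the E-cadherin gene, read 4.43 to 4.73 in H0R and 4.34 to 4.79 in H3R, against 9.52 to 9.55 in A0R, and in A549 it fell by 0.85 (SE 0.15, adjusted p = 0.00875), while KRT19, a keratin gene, rose by 1.14 (0.000461) and CLDN4, a tight junction gene, by 1.03 (0.00203). EPCAM, an epithelial adhesion gene, rose by 1.02 in HTB56 (SE 0.23, adjusted p = 0.00588), from 6.32 ± 0.59 to 7.34 ± 0.32, and the keratin gene KRT7 fell by 0.91 (adjusted p = 0.000278). Of 6 lung lineage markers limma called 0 in either line, with 1 at an unadjusted p below 0.05 in A549 and 0 in HTB56. NKX2-1, the lung lineage factor gene, had group means between 4.14 and 4.27.

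A0R replicate 2 stood apart from the other A549 arrays. For 27 genes above 7 on all HTB56 arrays and with an A549 median below 4.5, it exceeded that median by 0.52 in the median, against -0.14 to 0.04 on the other A549 arrays. It was the highest A0R array for CPLX1 (6.12), UNC13A (5.17), RAB3C (3.83) and NSG2 (4.24). The A3R arrays reached higher values for CPLX1 (6.19), UNC13A (5.2) and NSG2 (4.39). Among the A0R arrays, replicate 2 was the lowest for SNAP25 (7.09) and VAMP2 (6.83), and for SYP, STX1A and RAB3B it lay between the others. Without it SNAP25 differed by -0.60 (SE 0.13, limma adjusted p = 0.0402). The array medians lay between 5.55 and 5.67.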

How the data were processed

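Arrays were measured in A0R, A3R, H0R and H3R with 3 each, 12 in all, grouped by their titles. The values deposited by the authors are log2 signals; the submitters' processing notes name RMA and Affymetrix Expression Console, and the sources used here give neither their versions nor a genome build. RMA compresses differences of dim genes and removes any shift common to all genes. Scanner files were not used here. Of 33297 probe sets, 19460 had 1 symbol in the platform annotation, 1754 several and 12083 were not listed. A probe set was kept if on at least 3 arrays it exceeded the array's 20th percentile, and the brightest one stood for its gene, which left 16939 genes.

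The limma package, version 3.58.1, run in R 4.3.3 (lmFit with eBayes, two-sided, with p-values adjusted by Benjamini-Hochberg over the 16939 genes, threshold 0.05) fitted 1 mean per group over the 12 arrays and was tested on simulated data. Precision is limited by the number of arrays. The members and lists, marker lists included, were chosen with earlier results of these data known, so p-values of list genes are no independent test. Named besides the 9 are up to 2 called genes per list, line and direction, the 3 most similar genes of each member with an SD of at least 0.5, and fixed markers. NEUROD1, also planned, had no probe set of 1 symbol. The brightest probe set of each marker entered the sums, as linear signal. The replicate numbers of the titles, which no label explains, pair the samples: deviations from group means of same-numbered arrays correlated at 0.16 to 0.549, and of others at -0.417 to 0.204. The main fit left this pairing out, so its SEs, intervals and p-values are unpaired, and the replicate block was run as an alternative. Promoter windows came from RefSeq, and figures from matplotlib 3.10.9. Protein sequences were not used here. Alternatives were the filter, the probe set, the scaling, the arrays fitted, the block, eBayes settings, array weights, the threshold and each array left out.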

Additional observations from a re-analysis of the deposited data

Results flagged for a closer look

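The change after selection differed between HTB56 and A549, by the interaction term of the limma fit at an adjusted p below 0.05, for 7 of the 163 other pathway genes upward and 15 downward, 13.5% against 11.8% of all genes. Among the genes named above, the difference (HTB56 minus A549) was -3.10 for STXBP5L, -2.33 for CPLX2, -2.19 for VAMP8, -1.54 for PCLO, -1.44 for CADPS, -1.12 for DNM1, -1.07 for SYN1, -0.95 for ATP6V0A1, -0.88 for DNM3 and -0.74 for EXOC6B. It was 2.33 for LIN7A, which fell in A549 and was low in both HTB56 groups (3.69 to 4.34 in H0R and 3.48 to 3.95 in H3R), 0.94 for VAMP7, 0.66 for STXBP6, 0.53 for SCAMP2 and 0.47 for UNC13D, which had the largest adjusted p (0.0464). CADPS and STXBP5L were near the 20th percentile of the arrays (3.48) in A549, at 3.49 and 3.57 in A0R, so a fall there could not have been seen and their differences between the lines are limited by that floor. Of the 8 epithelial markers 3 differed upward and 3 downward by this term, 75% against 11.8% of all genes. The difference was 1.44 for EPCAM. It was 0.81 for CDH1, which fell in A549 and was low in both HTB56 groups (means of 4.55 in H0R and 4.5 in H3R).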

How the results depend on the processing

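In HTB56 the differences of the 9 genes kept their sign under each of the 22 alternatives, and that of NSG2 ranged from -3.55 to -2.77. In A549 the count of called members, 1, became 0 with the 6 A549 arrays alone and at a threshold of 0.01, and 0 to 1 with each array left out. With the replicate block SNAP25 kept its call (limma adjusted p = 0.0062), and over all alternatives its adjusted p was 0.0062 to 0.126. Differences near 0 changed sign in A549: UNC13A was -0.01 after median centring and -0.12 to 0.16 with each array left out, STX1A -0.24 to 0.04, CPLX1 -0.15 to 0.07 and RAB3B -0.04 to 0.16, and none was called. Of all genes in A549, 297 were called, 562 with the replicate block, 179 with the A549 arrays alone, 142 at 0.01 and 176 to 286 with each array left out. Leaving out A0R replicate 1 gave 176, A0R replicate 2 gave 190 and A3R replicate 2 gave 187. The 3 other pathway genes called in A549 became 5 with the replicate block, 1 with the A549 arrays alone, 1 at 0.01 and 1 to 3 with each array left out, 1 of them without A0R replicate 1 or A3R replicate 3. In HTB56 3298 genes were called, 4744 with the replicate block and 2039 at 0.01, and of the other pathway genes 10 were higher and 24 lower, or 18 and 32 with the block. The block changed no call of the 9 genes. The cause of these shifts was not tested. Signals near the 20th percentile limit RAB3C and NSG2 outside H0R.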

Other observations

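Values of 16 relatives of the 9 genes are given as a description, since these relatives were chosen after their values were seen. CPLX2, the relative of CPLX1, is not among them and fell, as described above. In HTB56 limma called 1 of the 16 and in A549 0, against 19.5% and 1.75% of all genes, with 4 and 1 at an unadjusted p below 0.05, and nothing is read from counts over so few. SYNGR1, of the family of SYP, fell by 0.63 in HTB56 (SE 0.17, limma adjusted p = 0.0186), a call lost without H0R replicate 2 (0.0745) or H3R replicate 1 (0.0609) or 2 (0.0564). The largest differences that were not called were -0.40 for UNC13C (adjusted p = 0.0537) and 0.32 for STX4 (0.0849). SNAP23, the widely expressed relative of SNAP25, read 9.27 in H0R and 9.22 in H3R, and VAMP3, a relative of VAMP2, 9.19 and 9.17. RAB3A and RAB3D differed by -0.18 and -0.23, SYPL1 by 0.20 and NSG1 by 0.04, and none of these 4 was called.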
